A study of Mus musculus with 6 samples.

Results

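The C/D small nucleolar RNAs (snoRNAs) of mouse ILC2 lines were described on arrays of cells that had received a CRISPR guide to Myc or a non-targeting guide. Members were the probe sets whose gene number maps to a symbol made of Snord and a digit, and 65 of the 23185 named probe sets met that rule. All 65 gene numbers were found in a RefSeq gene table, where the annotated RNAs are 45 to 221 nucleotides long (median 68). ILC2s are group 2 innate lymphoid cells, which secrete type 2 cytokines. The control group was labelled Non-target Control (NTC CRISPR) and the other group Myc knock out, with 3 arrays each. The latter are called the knockout-labelled arrays. All cells came from C57BL/6J ILC2 lines kept in 10 ng/ml IL-2 and IL-33, carried the lentiviral LentiV2CRISPRGFP construct, and were sorted for GFP on day 6 after transduction. Whether the 3 arrays of a group stand for separate cultures is not stated in the labels, and the spread that p-values rest on may therefore be technical.

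C/D snoRNAs are short RNAs with conserved C and D boxes that bind the proteins fibrillarin, NOP56, NOP58 and SNU13. Most of them base-pair with ribosomal RNA and guide its 2′-O-methylation in the nucleolus. A few, among them U3, U8, U13 and U14, instead or also serve the processing of the rRNA precursor. Most mammalian members are cut out of introns of host genes, many of which encode ribosomal proteins or nucleolar proteins, so that a host's transcription makes the mRNA and the snoRNA together. MYC, the transcription factor targeted here, is known for raising ribosome production.

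Of the 65 genes, 57 lay inside exactly 1 other annotated gene, taken here as the host, 5 lay inside 2 genes and 3 inside none. The 57 had 40 different hosts, 13 of which held 2 or more members. Promoter sequences of 33 of these hosts were at hand, and the 250 bases upstream of the annotated start were searched for CACGTG, the E-box known to be bound by MYC with its partner MAX. This motif reads the same on both strands. It was found in 5 hosts (15.2%), beside 6.86% of the 27025 genes of the promoter table. The difference between these shares was not tested, and the genes of the promoter table were not matched to the hosts. The 5 stretches were chosen for this match of letters alone. They come from RefSeq (GRCm38.p6), 5′ to 3′ on the gene's strand, with the motif in capitals and 20 bases on either side.
Rpl13a (chr7:45128920-45128965, minus strand; hosts Snord32a, Snord33, Snord34 and Snord35a): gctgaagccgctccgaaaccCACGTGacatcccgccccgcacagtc
Snx5 (chr2:144270597-144270642, minus strand; hosts Snord17): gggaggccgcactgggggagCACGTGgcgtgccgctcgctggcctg
Eif4g1 (chr16:20672653-20672698, plus strand; hosts Snord66): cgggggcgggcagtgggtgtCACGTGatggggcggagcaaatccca
Gm36220 (chr11:106500793-106500838, plus strand; hosts Snord104): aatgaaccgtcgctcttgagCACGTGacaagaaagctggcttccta
Eef2 (chr10:81176568-81176613, plus strand; hosts Snord37): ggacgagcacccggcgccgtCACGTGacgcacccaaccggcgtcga
A match is a description of letters and not of binding. The motif began 200, 50, 54, 102 and 43 bases before the annotated start in this order.

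Array medians over the named probe sets lay between 3.32 and 3.39 on the log2 scale. Myc mRNA was not lower in the knockout-labelled arrays. It was 9.27, 9.33 and 9.39 in controls and 9.55, 9.79 and 9.73 in the knockout-labelled arrays (log2 difference 0.36 ± 0.080, limma's adjusted p = 0.127). The arrays do not measure MYC protein, so the mRNA cannot show whether the guide removed it, and this was not tested. Every direction below rests on the labels. Of 10 ILC2 markers 7 were bright (Gata3, Il5, Il13, Id2, Il7r, Icos and Il2ra), Rora and Kit were intermediate, and Thy1 was near background. T cell markers (7 measured) and B cell markers (3 measured) had no bright member, while Itgam of 3 myeloid markers and Prf1 of 4 NK cell markers were bright. None of these 17 passed the test described below, and of the ILC2 markers Il5 rose (log2 difference 0.49 ± 0.061, limma's adjusted p = 0.0386). Il13, Icos, Kit and Il2ra were also higher without overlap, at 0.23 ± 0.095, 0.16 ± 0.057, 0.45 ± 0.089 and 0.19 ± 0.059. Gata3 and Il7r were lower without overlap, at −0.25 ± 0.066 and −0.22 ± 0.076. Of the T cell markers, Cd3g, at an intermediate level, was lower without overlap (−0.43 ± 0.13). The log2 levels of the ILC2 markers summed to 81.09 to 81.49 in controls and 82.07 to 83.07 in knockout-labelled arrays, and those of the NK cell markers to 14.07 to 14.61 and 14.66 to 14.90. The sum of the myeloid markers was 10.47 to 10.56 against 9.75 to 10.24, which rests on Itgam (−0.63 ± 0.10), since Csf1r and Adgre1 were near background and differed by −0.0055 and 0.12. The part of these markers in the results was not tested. In bulk samples, fewer cells of a type and less RNA per cell cannot be told apart.

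Most C/D snoRNA genes gave a signal well above the dim end of the arrays. A gene is called bright here when its mean over the 6 arrays was at or above the upper quartile of all named probe sets (5.82), near background when it was below their median (3.34), and intermediate between these. By that measure 45 of the 65 were bright, 15 intermediate and 5 near background. Just inside the bright class was Snord14a at 6.03, and just outside it was Snord45b at 5.65. The highest signals belonged to Snord100, inside the ribosomal protein gene Rps12, at 11.33, to Snord32a and Snord33, inside Rpl13a, at 11.28 and 11.14, and to Snord82, inside the nucleolin gene Ncl, at 10.49. Levels of different probe sets depend on their probes and are not amounts of RNA, so this order says which genes could be measured and not which RNA is most abundant.

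The 5 near-background genes were Snord123, Snord90, Snord85, Snord91a and Snord64, with means of 2.68, 2.40, 2.22, 2.20 and 0.88. Snord64 belongs to the imprinted Snrpn to Ube3a region, whose snoRNAs are known from neurons, and it was the dimmest C/D snoRNA gene measured. Its values were 1.02, 0.94 and 0.91 in controls and 0.72, 0.67 and 1.04 in the knockout-labelled arrays. Its host Snhg14 was also near background, at a mean of 1.46, and 3 of the 4 neuronal markers were near background. No difference can be read from genes at this level.

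**Figure D1:**
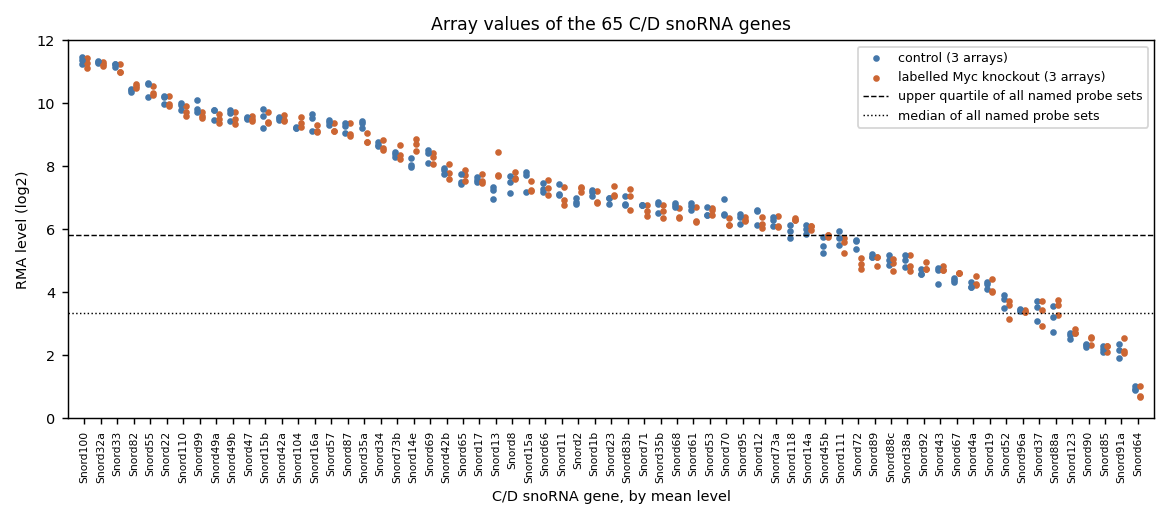
RMA log2 values of the 65 C/D snoRNA genes on 3 control arrays (blue) and 3 knockout-labelled arrays (orange), ordered by mean, with the median (dotted, 3.34) and upper quartile (dashed, 5.82) of all named probe sets. The points of 45 genes average at or above the dashed line, and in most genes the 2 colours overlap.

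No C/D snoRNA gene passed the test between the groups. With limma, a gene passes at a Benjamini-Hochberg adjusted p under 0.05 over all 23185 named genes, which 0.453% of all genes did. The smallest adjusted p among the 65 was 0.0937, for Snord72. This count depends on how limma estimates the variance: with an intensity trend Snord2 passed as higher (adjusted p = 0.0477), and with a robust trend Snord2 and Snord14e passed as higher and Snord35a and Snord72 as lower. At an unadjusted p under 0.05, 5 of 65 were higher and 4 lower in the knockout-labelled arrays. These are 7.69% and 6.15% of the members, beside 6.97% and 7.91% of all genes. The arrays of the groups did not overlap for 8 members that were higher and 4 that were lower. These are 12.3% and 6.15%, beside 9.25% and 10.6% of all genes. Among the 45 bright members described above, an unadjusted p under 0.05 was reached by 4 higher (8.89%) and 3 lower ones (6.67%), beside 9.35% and 14.8% of all bright genes. The arrays of the groups did not overlap for 6 higher (13.3%) and 3 lower (6.67%) bright members, beside 14.3% and 22.3% of all bright genes. No count of members lay far above the background.

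The median log2 difference, knockout-labelled arrays minus control, was −0.056 over the 65 genes, with 25 positive and 40 negative. Over all named genes it was 0.0077, with 52.2% positive, and over the bright ones among them −0.026, with 42.3% positive. The 45 bright C/D snoRNA genes had a median of −0.065, with 15 positive and 30 negative, and the middle of their differences reached from −0.18 (lower quartile) to 0.044 (upper quartile). For 35 of these 45 the 95% confidence interval of the difference, not adjusted for the number of genes, lay within a 1.5-fold change in either direction. The remaining 10, among them Snord13, Snord14e, Snord118, Snord35a and Snord70, leave room for a larger change. Over all bright genes the interval lay within that range for 5511 of 5797, a larger share.

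**Figure D2:**
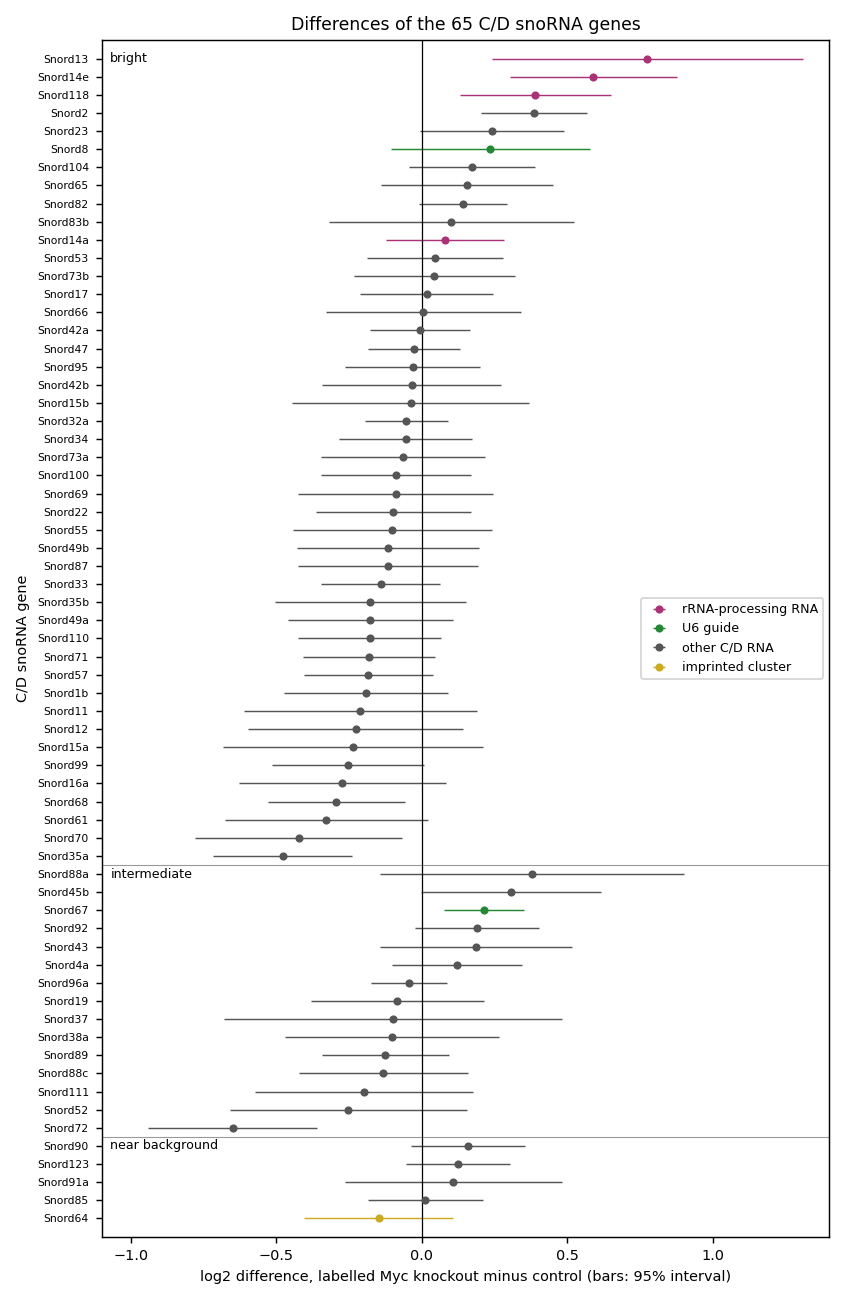
Log2 difference of each C/D snoRNA gene, knockout-labelled arrays minus control, with its 95% confidence interval from limma, grouped by signal class and coloured by role. The rRNA-processing RNAs Snord13, Snord14e and Snord118 stand at the top of the bright class with 0.77, 0.59 and 0.39, and the lower and upper quartiles of the bright class are −0.18 and 0.044.

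Of the 4 RNAs classed here as serving rRNA processing, Snord13, Snord14e and Snord118 had the largest positive differences of all 65 members, and Snord14a did not. None of the 4 passed. The class was fixed by symbol, and whether members outside it, such as Snord22, also serve processing was not checked. Snord13 (U13), which base-pairs with 18S rRNA and directs its acetylation, was at 6.96, 7.26 and 7.35 in controls and 7.72, 7.71 and 8.47 in the knockout-labelled arrays. The groups did not overlap, and replicate 3 of the knockout-labelled arrays stood above the other 2. The log2 difference was 0.77 ± 0.22 (SE; 1.71-fold, 95% confidence interval 0.24 to 1.31, limma's adjusted p = 0.199), and 0.52 without that replicate.

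Snord118 (U8), which is needed for the maturation of 5.8S and 28S rRNA, was at 5.71, 6.13 and 5.96 in controls and 6.36, 6.31 and 6.31 in the knockout-labelled arrays. All 3 values of the latter lay above the controls and close together. The difference was 0.39 ± 0.11 (limma's adjusted p = 0.188). Snord13 and Snord118 lay inside no annotated gene, as did Snord89, whose difference was −0.13 ± 0.091.

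Snord14 (U14), which serves 18S rRNA processing and also guides a methylation, was measured as a pair of gene copies with different hosts. Snord14e, inside the chaperone gene Hspa8, was at 7.98, 8.04 and 8.27 in controls and 8.86, 8.71 and 8.49 in the knockout-labelled arrays, with no overlap. Its difference was 0.59 ± 0.12 (95% confidence interval 0.30 to 0.88, limma's adjusted p = 0.106), while Hspa8 itself differed by 0.073 ± 0.061. Snord14a, inside the ribosomal protein gene Rps13, was at 5.85, 6.01 and 6.12 in controls and 6.10, 6.00 and 6.12 in the knockout-labelled arrays. These groups overlapped, and the difference was 0.079 ± 0.085 (95% confidence interval −0.12 to 0.28, limma's adjusted p = 0.692). Within each array, Snord14e minus Snord14a was 2.10 ± 0.062 in controls and 2.61 ± 0.21 in the knockout-labelled arrays (SD, n = 3 arrays each). That gap differed by 0.51 between the groups, with p = 0.1 in an exact two-sided permutation test, the smallest that 3 against 3 arrays allow. The pair was set side by side after its values were seen, and copies so alike can share probes.

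Among the 4 processing RNAs all differences were positive, with a median of 0.49, and 3 had an unadjusted p under 0.05 in limma. Of all bright genes, 42.3% had positive differences, and 9.35% were higher at that p. Among the 40 other bright C/D RNAs, which exclude U6 guides, 1 higher and 3 lower ones had an unadjusted p under 0.05 in limma. Their differences were positive for 10 and negative for 30, with a median of −0.094. That median ran from −0.18 without knockout-labelled replicate 1 (5 positive, 35 negative) to −0.027 without replicate 3 (14 positive, 26 negative). With so few processing RNAs and no test of the lists against each other, nothing particular is claimed for them.

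The members that guide methylation of the U6 spliceosomal RNA were Snord8 and Snord67. Snord8, inside both Chd8 and Gm26590 by position, was at 7.17, 7.49 and 7.71 in controls and 7.83, 7.64 and 7.60 in the knockout-labelled arrays. The groups overlapped (difference 0.24 ± 0.14, limma's adjusted p = 0.483), and the difference was 0.091 without control replicate 1 and 0.36 without control replicate 3. Snord67, inside Ckap5, was dimmer, at 4.46, 4.33 and 4.40 against 4.60, 4.61 and 4.61. Its groups did not overlap, and the difference was 0.21 ± 0.058 (limma's adjusted p = 0.183). Snord67, Snord72 and the further members given below with values were picked after their values were seen where they are not among the brightest or most different bright genes.

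Of the remaining bright members, Snord2 had the largest positive difference. Snord2, inside the translation initiation factor gene Eif4a2, was at 6.82, 6.88 and 6.99 in controls and 7.18, 7.31 and 7.35 in the knockout-labelled arrays. The groups did not overlap, and the difference was 0.39 ± 0.076 (1.31-fold, limma's adjusted p = 0.0998). Eif4a2 mRNA differed in the opposite direction, by −0.13 ± 0.099. Snord23, inside the ribosome assembly gene Nop53, was at 6.81, 6.99 and 6.99 against 7.37, 7.10 and 7.05, a difference of 0.24 ± 0.10 without overlap, or 0.14 without knockout-labelled replicate 1. Snord82, inside Ncl, was at 10.44, 10.44 and 10.37 against 10.63, 10.56 and 10.48, a difference of 0.14 ± 0.063, again without overlap, and Ncl differed by 0.12 ± 0.058.

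The negative differences of largest size belonged to Snord72, Snord35a and Snord70. Snord35a, a guide for 28S rRNA inside Rpl13a, was at 9.38, 9.22 and 9.46 in controls and 9.05, 8.79 and 8.79 in the knockout-labelled arrays. The groups did not overlap, and the difference was −0.48 ± 0.10 (95% confidence interval −0.72 to −0.24, limma's adjusted p = 0.113). Snord70, inside Nop58, was at 6.47, 6.97 and 6.48 against 6.35, 6.15 and 6.14, a difference of −0.42 ± 0.15, or −0.26 without control replicate 2, which was the highest array. The other member inside Nop58, Snord11, overlapped between groups (−0.21 ± 0.17), while Nop58 mRNA differed by 0.20 ± 0.083.

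Snord68, inside Rpl13, was at 6.78, 6.71 and 6.84 in controls and 6.69, 6.39 and 6.37 in the knockout-labelled arrays, a difference of −0.29 ± 0.098 without overlap. Snord61, inside the splicing factor gene Rbmx, overlapped between the groups and differed by −0.33 ± 0.15. Snord16a, inside Rpl4, and Snord99, inside the noncoding gene Snhg12, also overlapped and differed by −0.27 ± 0.15 and −0.25 ± 0.11. Without control replicate 1 these became −0.44 and −0.15, and without control replicate 3 Snord16a was at −0.16. Adjusted p-values of Snord68, Snord61, Snord16a, Snord99 and Snord70, with all arrays, were 0.254 to 0.438 in limma. The largest negative difference of all 65 belonged to Snord72, an intermediate gene inside Rpl37. It was at 5.65, 5.38 and 5.67 in controls and 5.10, 4.73 and 4.91 in the knockout-labelled arrays, without overlap, a difference of −0.65 ± 0.12 (1.57-fold lower).

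**Figure D3:**
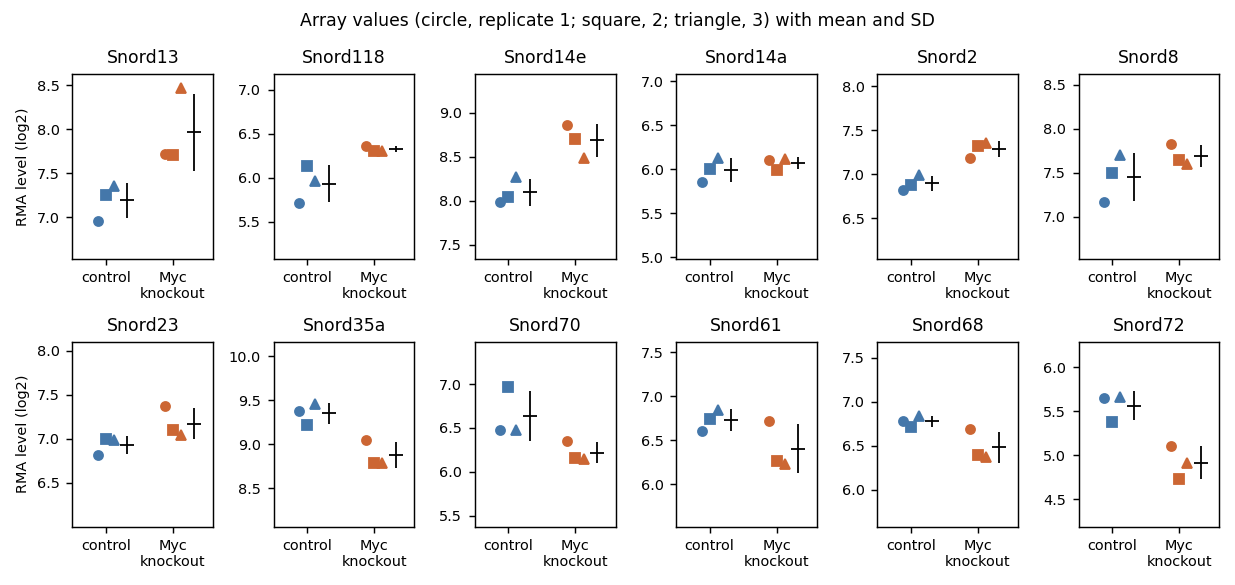
RMA log2 values on each array for 12 C/D snoRNA genes, with control in blue, knockout-labelled arrays in orange, the replicate given by the marker, and the mean ± SD in black (n = 3). Every panel spans the same range of log2 units, so Snord13 with 0.77 and Snord14a with 0.079 can be compared by eye.

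The Rpl13a introns allow a comparison of 4 bright snoRNAs from 1 transcript. These RNAs, known as guides of rRNA methylation and from work on metabolic stress, had differences of −0.053 ± 0.060 (Snord32a), −0.14 ± 0.085 (Snord33), −0.056 ± 0.095 (Snord34) and −0.48 ± 0.10 (Snord35a). Snord32a was at 11.28, 11.30 and 11.34 against 11.33, 11.24 and 11.20, and Snord33 at 11.24, 11.16 and 11.25 against 11.24, 10.98 and 11.00. Both overlapped between the groups, as did Snord34, so that Snord35a was the 1 member of this host whose groups stood apart. Within each array, Snord35a minus the mean of its 3 neighbours was −1.06 ± 0.10 in controls and −1.45 ± 0.027 in the knockout-labelled arrays. This gap differed by −0.39, with p = 0.1 in an exact two-sided permutation test, the smallest possible, and it too was chosen after the values were seen.

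The members inside Gas5 and Snhg1, both noncoding genes, had small differences. Snord47, a 28S rRNA guide inside Gas5, was at 9.52, 9.54 and 9.58 in controls and 9.61, 9.43 and 9.52 in the knockout-labelled arrays. It differed by −0.026 ± 0.066 (95% confidence interval −0.18 to 0.13), with Gas5 at 0.048 ± 0.059. Snord22, inside Snhg1, was at 9.97, 10.22 and 10.23 against 10.23, 9.98 and 9.92 and differed by −0.097 ± 0.11, with Snhg1 at 0.018 ± 0.065. The groups overlapped for both RNAs.

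By host class, which was set after the values were seen, 21 members lay inside ribosomal protein genes, 11 inside noncoding genes and 25 inside other protein-coding genes. In the first class 5 differences were positive and 16 negative (median −0.065), in the second 3 and 8 (median −0.15) and in the third 13 and 12 (median 0.0050). None of the 57 passed in limma. The 8 members whose host has the E-box shown above differed by −0.48 to 0.17, with 3 positive and 5 negative. Snord104, inside Gm36220, had the highest of these (0.17 ± 0.090), at 9.23, 9.22 and 9.25 in controls against 9.57, 9.39 and 9.24. Snord17 and Snord66 differed by 0.017 ± 0.095 and 0.0050 ± 0.14, and Snord37, at an intermediate level, by −0.10 ± 0.24.

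The differences of C/D snoRNAs and of their host mRNAs were nearly uncorrelated. For 44 members the 1 host, of 32 in all, was also measured, and 19 of them had the sign of their host. Across these genes Pearson's r was 0.021 and Spearman's rho −0.11, given as a description since members share hosts and all share the 6 arrays. With 1 point per host r was 0.065. For the 20 members where snoRNA and host were both bright, r was 0.028. Several ribosomal protein hosts had dim probe sets, with means of 2.89 for Rpl37, 3.03 for Rpl3, 3.54 for Rps13 and 3.71 for Rpl13, so their differences carry little information. The other hosts, Rpl13a among them, are not analysed here.

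**Figure D4:**
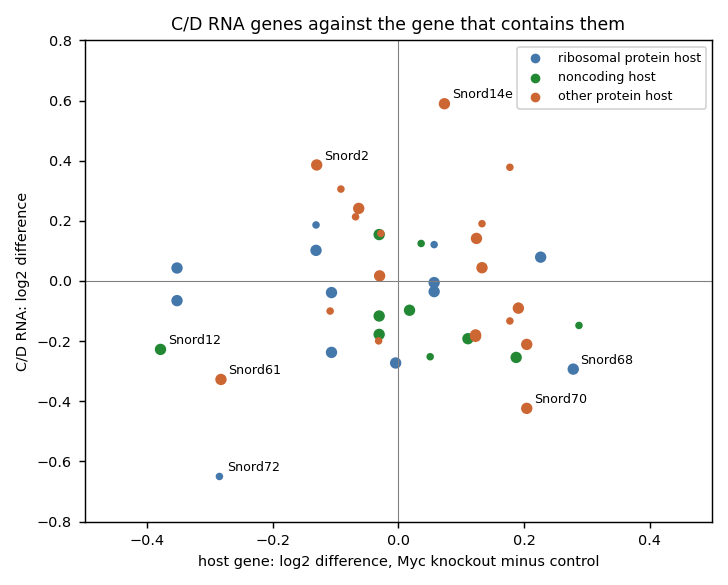
Log2 difference of 44 C/D snoRNA genes against the log2 difference of the gene that contains them, coloured by host class, with large points for bright snoRNA genes and small points for dimmer ones. The points form no line (r = 0.021), and Snord14e, Snord2 and Snord70 lie far from the value of their host. Snord72, Snord61 and Snord12 share the negative sign of theirs.

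Single arrays moved the whole set of bright C/D snoRNA genes by more than the groups differed. The median of these 45 genes, each set against its control mean, was −0.10, 0.0023 and 0.097 on control arrays 1, 2 and 3 and 0.092, −0.15 and −0.22 on knockout-labelled arrays 1, 2 and 3. Replicate 1 of the knockout-labelled arrays therefore lay at the level of the upper control and the other 2 below all controls. It was the highest of its group for 42 of the 45 (93.3%), beside 24.0% of all bright genes and 23 of 28 bright H/ACA snoRNA genes. Without this array the median of the 45 was −0.17, with 10 positive and 35 negative, and 0 passed after adjustment in limma. An unadjusted p under 0.05 was then reached by 4 higher (8.89%) and 10 lower (22.2%) members. Under the same setting it was reached by 6.61% and 6.85% of all genes and by 9.33% and 12.1% of all bright genes. Without control replicate 1 the median was −0.13. Without replicate 3 of the knockout-labelled arrays it was −0.021, and without control replicate 3 it was −0.036. The part of such array shifts in the results above was not tested.

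The spread between replicates was wider than for most bright genes. The median SD was 0.14 among controls and 0.17 among the knockout-labelled arrays over the 45 bright C/D snoRNA genes, against 0.067 and 0.066 over all bright genes. Their median SE was 0.12, against 0.069 for all bright genes. The 28 bright H/ACA snoRNA genes were alike in this, with median SDs of 0.13 and 0.19 and a median SE of 0.12.

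**Figure D5:**
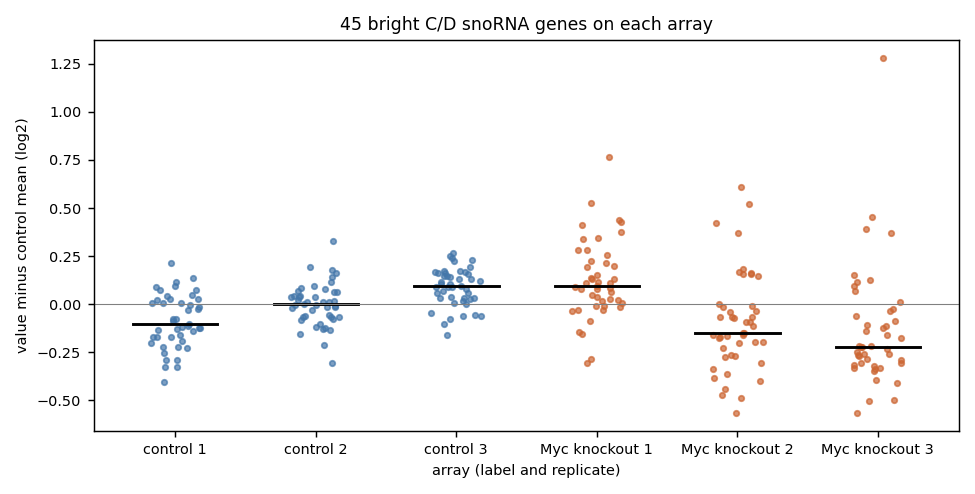
Values of the 45 bright C/D snoRNA genes on each array, each minus the gene's control mean (log2), with the median of the 45 as a black line. Knockout-labelled replicate 1 has its median at 0.092 and replicates 2 and 3 at −0.15 and −0.22, and the highest point on replicate 3 is Snord13.

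H/ACA snoRNAs, the other class of nucleolar guide RNA, direct pseudouridine formation and are given beside the C/D class as the nearest kind of small RNA on these arrays. Of 34 H/ACA genes, 27 had positive differences (median 0.42), 7 rose and 0 fell past the threshold in limma, and 20 (58.8%) had a positive difference with an unadjusted p under 0.05. Among all genes these shares were 0.453% for passing in either direction and 6.97%. The 8 small Cajal body RNA genes had a median of 0.058, and 1 rose. Without any 1 of the 6 arrays, no H/ACA gene passed, although their median stayed between 0.32 and 0.48. Few genes of any kind could pass then, since over all genes only 0 to 2 were higher and 0 to 1 lower. On knockout-labelled arrays 1, 2 and 3 the median of the 28 bright H/ACA genes stood 0.53, 0.40 and 0.19 above their control means. The C/D and H/ACA lists were not tested against each other.

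Genes listed for C/D particle proteins, their assembly and related nucleolar or Cajal body proteins had mostly small positive differences, and none passed. Of 20 listed genes 18 were measured, 14 with positive and 4 with negative differences (median 0.12), and at an unadjusted p under 0.05 limma gave 6 higher (33.3%) and 0 lower, beside the 6.97% and 7.91% of all genes. Of the core proteins, Fbl, which encodes the methyltransferase fibrillarin, had a control mean of 7.42 ± 0.089 and a mean of 7.75 ± 0.043 over the knockout-labelled arrays (SD, n = 3), a difference of 0.34 ± 0.067. The other core genes differed by less, Nop58 by 0.20 ± 0.083 and Nop56 by 0.12 ± 0.068. Snu13 is not analysed here. Rrp9, which encodes a protein of the U3 particle, was at 5.53 ± 0.043 in controls and 5.90 ± 0.14 in the knockout-labelled arrays (SD, n = 3), a difference of 0.37 ± 0.083. The assembly factor gene Znhit3 differed by 0.30 ± 0.085, and the genes of the nucleolar proteins Nolc1 and Tcof1 by 0.21 ± 0.077 and 0.20 ± 0.065. Nat10, the acetyltransferase that works with U13, was at 0.11 ± 0.053, and the assembly genes Nufip1 and Pih1d1 were at −0.084 ± 0.071 and −0.12 ± 0.077. Both hosts Nop56 and Nop58 thus had positive differences while the 4 snoRNA genes inside them, Snord57, Snord110, Snord11 and Snord70, had negative ones, −0.18 ± 0.093, −0.18 ± 0.10, −0.21 ± 0.17 and −0.42 ± 0.15.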

How the data were processed

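The deposited values are log2 RMA levels, and the authors also used limma 3.14.4, per the submitters' processing notes. RMA equalises the distribution of all arrays, so a value is relative to its array and a shift shared by all transcripts is removed. Not given in the sources used here are array version, probe set definition and genome build. A probe annotation gave 1 symbol for 23185 of 25206 probe sets and no single symbol for 2021. The 23185 were fitted without a further filter in R 4.3.3 with limma 3.58.1 (lmFit, eBayes, no covariate, two-sided), knockout-labelled minus control. Differences are given ± SE.

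Hosts are RefSeq genes (GRCm38.p6) that contain a member by position. The gene table holds no strand, so strand was not used although planned. Named members were the processing RNAs, the 4 brightest, the 6 highest and 6 lowest differences among bright members, and those inside Gas5 and Snhg1. The members and lists were chosen with earlier results of these data known. On simulated data for this comparison (20 sets of 23185 genes, 200 of them changed), limma recovered 36.4% of the genes changed by 0.5 log2 units, 88.6% of those changed by 1 and 97.5% of those changed by 2. The simulated spreads followed the fit over all genes, with genes varying independently. Bright C/D snoRNA genes had a median SE of 0.12, against 0.087 for all named genes, and moved together by array. These shares can therefore be too high for the members. Arrays carry no depth, and their number limits the precision. Figures used matplotlib 3.10.9.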

Additional observations from a re-analysis of the deposited data

How the results depend on the processing

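Of the C/D snoRNA genes, 0 passed under median centring, cyclic loess, array weights, all probe sets or without any 1 array (0 to 0 in each direction). With eBayes allowing an intensity trend, 1 was higher (Snord2, adjusted p = 0.0477) and 0 lower, with a robust trend 2 were higher and 2 lower, and with dimmer genes (mean under the median) left out again 2 and 2 (Snord2 and Snord14e higher, Snord35a and Snord72 lower, adjusted p = 0.0329 to 0.0419 in limma). At an adjusted p under 0.10, 1 was higher and 1 lower. Genes of the particle and assembly list passed as higher in 1 case (Fbl) with a trend, 1 with a robust trend and 2 (Fbl and Rrp9) without the dimmer genes. Over all genes 59 rose and 46 fell, against 162 and 208 with a trend, 193 and 261 with a robust trend, 204 and 345 without the dimmer genes and 185 and 228 at an adjusted p under 0.10. Leaving out 1 array gave 0 to 2 higher and 0 to 1 lower. The cause of these changes was not tested. The replicate block called 0 and 0 genes, and 0 members. Same-numbered arrays did not deviate together (correlations −0.070, −0.012 and −0.018), and no array correlated best with its own number. This check cannot exclude that arrays were prepared in pairs, which the labels do not state. Medians over all 65, without 1 array, ran from −0.12 to −0.019, and those of the processing RNAs from 0.41 to 0.54. Snord47 ran from −0.071 to 0.018 when 1 array was left out, positive without knockout-labelled replicate 2, the 1 sign change among named members. Taking bright from the 90th percentile left 28 bright members (median −0.072). Signal limits the 5 near-background members.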

Other observations

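Some hosts held several C/D snoRNA genes not compared above, chosen after their values were seen. Snord49a and Snord49b, copies that can share probes, inside the noncoding gene 2410006H16Rik, differed by −0.18 ± 0.12 and −0.12 ± 0.13, and Snord65 from the same gene by 0.15 ± 0.12. Snord53 and Snord92, inside the ribosome assembly gene Wdr43, differed by 0.044 ± 0.097 and 0.19 ± 0.089, and Wdr43 itself by 0.13 ± 0.066. Snord12, inside the noncoding gene Zfas1, differed by −0.23 ± 0.15, and Zfas1 by −0.38 ± 0.087. None of these passed in limma.

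Some deposited values of a gene were identical on 2 or more arrays. This held for 8 of the 65 C/D snoRNA genes (12.3%), among them Snord118 and Snord67, beside 38.8% of all named genes, so the small SDs of Snord118 (0.032) and Snord67 (0.0038) in the knockout-labelled arrays include repeated values.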
